A study of Mus musculus with 2 samples.

Results

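Stmn1, Dbn1, Dcx and Nes are 4 of the 263 genes on a mouse neurogenesis and neural stem cell oligonucleotide array. They were taken by symbol, as cytoskeleton genes of neuroblasts and neural progenitors, and each has 1 spot. The array was hybridised with RNA of the microdissected subventricular zone (SVZ), the germinal layer beside the lateral ventricles, at postnatal day 8. The mice were CNP-hEGFR transgenics, in which, as the name of the line reads, a human EGF receptor is driven by the promoter of the oligodendrocyte lineage gene Cnp, and wild-type (WT) mice. Each group has 1 array. The labels give neither the strain nor the number of animals per RNA sample, and the design text speaks of 3 RNA preparations, of which 1 array per group was analysed here. No difference below has a replicate check, and precision is limited to what a single array per group gives. In whole tissue, fewer cells of a type and less RNA per cell cannot be told apart.

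The cytoskeleton changes as a neural progenitor of the SVZ becomes a migrating neuroblast. Progenitors build intermediate filaments that contain nestin, while neuroblasts carry doublecortin on a bundled microtubule array that supports the long leading process and the movement of the nucleus behind it. Stathmin loosens microtubules and drebrin organises actin filaments, and both proteins are abundant in young neurons that are still growing or migrating.

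The array reports list the genes as Stmn1 (stathmin 1, RefSeq NM_019641), Dbn1 (drebrin 1, NM_019813), Dcx (doublecortin, NM_010025) and Nes (nestin, NM_016701). The sequences of the array's oligonucleotides were not analysed here. The RefSeq promoter table of mouse build GRCm38.p6, with 250 bases before and 50 after each start, holds Nes, Dbn1 and Dcx. The windows of Dcx and Nes are shown because these were the members whose intensity was about 2-fold higher in CNP-hEGFR together. Dcx has a pair of overlapping windows in the table, and the one that starts farther upstream is given, from chrX:143933170-143933469 on the minus strand. The Nes window is chr3:87970843-87971142 on the plus strand. Capitals mark each CG pair.
Dcx: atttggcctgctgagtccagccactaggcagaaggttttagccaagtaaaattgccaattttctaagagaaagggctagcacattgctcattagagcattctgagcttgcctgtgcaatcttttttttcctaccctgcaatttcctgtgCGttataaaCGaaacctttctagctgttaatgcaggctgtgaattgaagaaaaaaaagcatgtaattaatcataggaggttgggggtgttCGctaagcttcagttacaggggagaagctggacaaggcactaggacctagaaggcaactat
Nes: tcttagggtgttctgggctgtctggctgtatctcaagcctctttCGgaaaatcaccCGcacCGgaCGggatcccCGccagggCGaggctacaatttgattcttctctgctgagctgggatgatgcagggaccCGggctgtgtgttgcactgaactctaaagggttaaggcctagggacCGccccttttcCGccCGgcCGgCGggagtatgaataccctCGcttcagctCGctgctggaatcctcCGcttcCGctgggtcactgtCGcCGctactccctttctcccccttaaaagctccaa

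The Dcx window had 43.0% G and C and 3 CG pairs, and the Nes window 58.7% and 18 CG pairs, against medians of 52.7% and 7 over 32851 promoter windows of the same length. The letters TATAAA, searched on both strands, occur in the Dcx window and not in that of Nes, and 13.6% of all windows hold them. The E-box letters CANNTG, which read the same on both strands and which proneural factors bind, occur in neither window, while 72.3% of all windows hold them. These matches describe the windows only.

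All 4 genes were called present on both arrays by the deposited calls, and none of their spots carried a deposited bleeding warning. The file headers give a threshold of 1.5 for these calls, and how it was applied is not given in the sources used here. Their brightness differed widely. A spot intensity is the average over the spot area on a scale that ends at 65535, with no background subtracted. Only 3 gene spots have a deposited intensity above that ceiling, all among the 9 genes set aside from some comparisons because their deposited normalized values cannot be computed from their intensities. Ranks below are among the 263 gene spots of the same array, with 1 the brightest. They order spots, not transcripts, because different oligonucleotides bind with different strength. The CNP-hEGFR array was the brighter one for most spots, with a median gene spot of 8528 against 3908 in WT. The gene spots were 1.99-fold brighter at the median, and 10 of the 263 were dimmer in CNP-hEGFR.

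**Figure D1:**
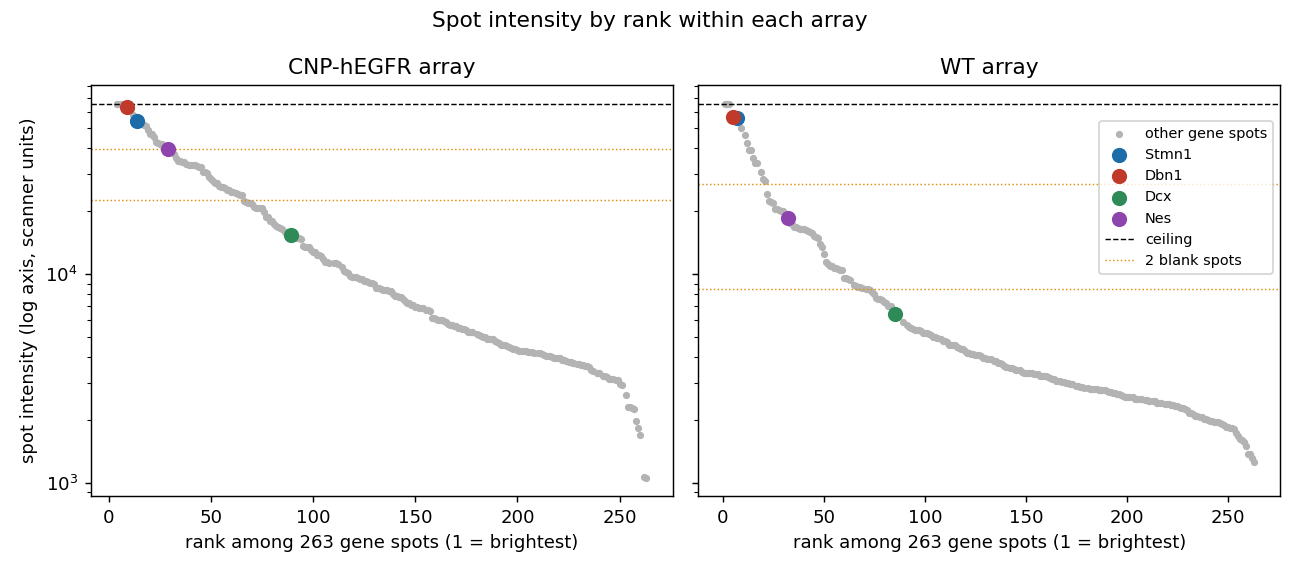
Spot intensity (log axis, scanner units) against rank within the CNP-hEGFR array on the left and the WT array on the right. Grey points are the other gene spots, without the 9 genes set aside, the dashed line is the ceiling of 65535 and dotted lines are the 2 blank spots. Dbn1 and Stmn1 lie at the top of both arrays, Nes at ranks 29 and 32, and Dcx at ranks 89 and 85, below both blanks.

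Stmn1, which encodes the tubulin-binding protein stathmin that promotes microtubule disassembly, had an intensity of 54131 in CNP-hEGFR and 56052 in WT. It was thus slightly dimmer on the array whose median was higher, and its rank was 14 in CNP-hEGFR and 7 in WT. It stood at 82.6% of the ceiling in CNP-hEGFR and 85.5% in WT. Stmn1 was brighter than both blank spots on both arrays, at 39739 and 22727 in CNP-hEGFR and 27046 and 8478 in WT. A spot of plasmid DNA (PUC18), which carries no mouse gene, measured 54446 in CNP-hEGFR, just above Stmn1, and 38249 in WT, below it.

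Dcx, which encodes the microtubule-stabilising protein doublecortin of migrating neuroblasts, had an intensity of 15373 in CNP-hEGFR and 6396 in WT. Its rank was 89 in CNP-hEGFR and 85 in WT, so its place on the array hardly differed. Both intensities lay below both blank spots of the same array. Of the genes called absent, 7 in CNP-hEGFR and 10 in WT had brighter spots than Dcx.

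Dbn1, the drebrin gene, whose product binds along actin filaments in growing neurites and later in dendritic spines, had an intensity of 62983 in CNP-hEGFR and 56730 in WT. Its rank was 9 in CNP-hEGFR and 5 in WT. At 96.1% of the ceiling in CNP-hEGFR it was the member nearest to the end of the scale, and in WT it was at 86.6%. It was brighter than the blanks and the plasmid spot on both arrays.

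Nes, the gene of the intermediate filament protein nestin of neural progenitors, had an intensity of 39543 in CNP-hEGFR and 18454 in WT. It ranked 29 in CNP-hEGFR and 32 in WT. On each array it lay between the brighter and the dimmer blank spot, in CNP-hEGFR just under the brighter one, and it was dimmer than the plasmid spot on both. At 60.3% of the ceiling in CNP-hEGFR and 28.2% in WT, Nes had room on the scale on both arrays.

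Each spot has a local background, the intensity measured around it, and the members ranked differently when set against it. The median gene spot was 1.09 times its own local background in CNP-hEGFR and 1.06 times in WT, and 108 gene spots in CNP-hEGFR and 111 in WT were dimmer than theirs. Nes was 2.77 times its local background in CNP-hEGFR (39543 over 14271) and 2.85 times in WT (18454 over 6483). By this measure it ranked 5 in CNP-hEGFR and 13 in WT, the highest of the members on both arrays.

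Stmn1 was 1.44 times its local background in CNP-hEGFR (54131 over 37545) and 2.18 times in WT (56052 over 25662). Dbn1 was 1.53 times its local background in CNP-hEGFR (62983 over 41156) and 2.02 times in WT (56730 over 28024). For these bright spots the background differed more between the arrays than the spot did. Ranked by this measure, Stmn1 moved to 86 in CNP-hEGFR and 46 in WT, and Dbn1 to 80 in CNP-hEGFR and 52 in WT.

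Dcx was 1.38 times its local background in CNP-hEGFR (15373 over 11157) and 1.31 times in WT (6396 over 4878), and ranked 93 in CNP-hEGFR and 86 in WT. Both values lie below 1.5, as does that of Stmn1 in CNP-hEGFR. The call threshold of 1.5 was not applied to spot over local background, however. Ina was called absent in CNP-hEGFR at 1.99 times its local background, and Dlg4 present in WT at 1.12 times. Genes without a present call exceeded Dcx by this measure in 12 cases in CNP-hEGFR and 9 in WT. In CNP-hEGFR 9 such genes exceeded Stmn1 and 6 exceeded Dbn1, and in WT 0 exceeded either. Of the members, Dcx therefore rested on the least signal over its surroundings on both arrays.

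**Figure D2:**
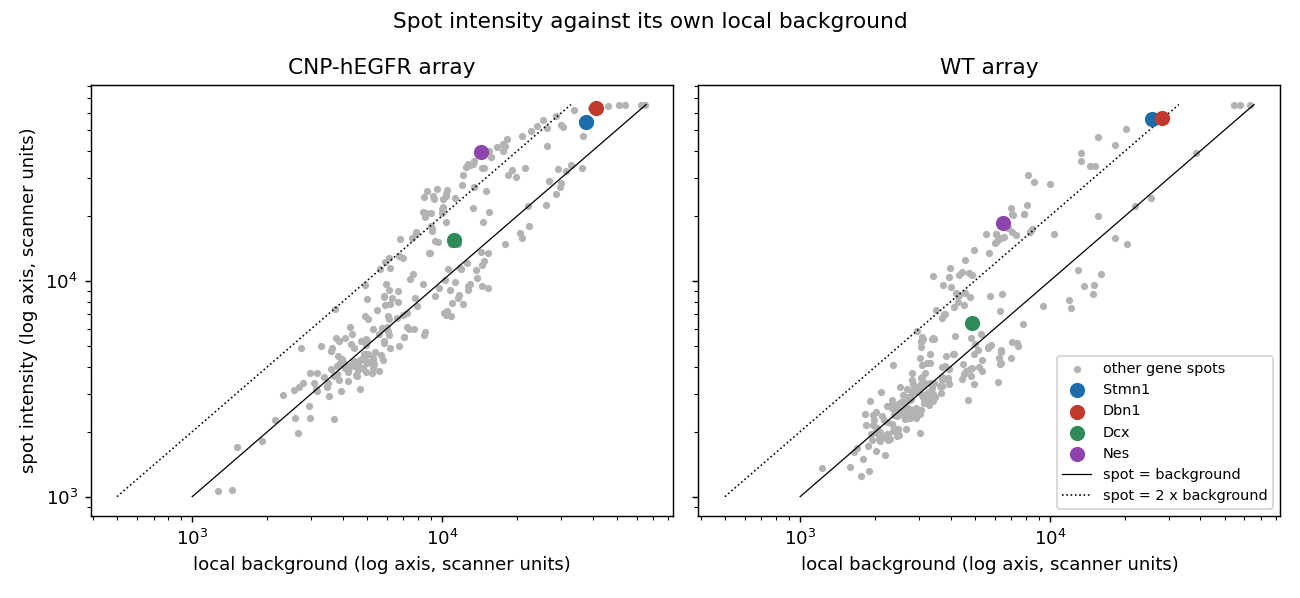
Spot intensity against the local background of the same spot (log axes, scanner units), CNP-hEGFR on the left and WT on the right, with grey points for the other gene spots without the 9 set aside. The solid line marks a spot equal to its background and the dotted line a spot at 2 times it. Nes lies above the dotted line on both arrays, Stmn1 and Dbn1 above it in WT only, and Dcx between the lines on both.

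The surroundings of the spots differed as well. Of the 8 spots next to Nes on the membrane none was brighter than Nes on either array, and their median was 5473 in CNP-hEGFR and 3068 in WT. Dcx lies beside the very bright spot of the BMP antagonist gene Chrd (64974 in CNP-hEGFR, 57772 in WT), which has a bleeding warning in CNP-hEGFR, and 6 of its 8 neighbours in CNP-hEGFR and 5 in WT were brighter than Dcx. Next to Dcx also lies Dcamkl1, now Dclk1, whose kinase has a doublecortin domain, with an intensity of 30758 in CNP-hEGFR and 16430 in WT.

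Stmn1 lies at line 21 and column 4 of the layout, inside the block at the left edge (lines 18 to 22, first 4 columns) where the CNP-hEGFR array had raised signal. The 18 other genes of this block outside the 9 set aside had a local background 2.26-fold to 8.76-fold higher in CNP-hEGFR than in WT, with a median of 3.50-fold. The local background of Stmn1 was 1.46-fold higher. The spots of those 18 genes were 1.06-fold to 9.93-fold brighter in CNP-hEGFR, with a median of 3.04-fold, where the Stmn1 spot was 0.966 times its WT value. Stmn1 had the brightest spot and the highest local background of these genes in WT. Its 8 direct neighbours, in contrast, were all at least 2.15-fold brighter in CNP-hEGFR.

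The comparison of CNP-hEGFR with WT asks how a receptor transgene in the oligodendrocyte lineage goes with gene expression in the SVZ. For the ratio, the arrays were scaled to their mean over 3 Gapdh and 3 Ppia spots, and the log2 ratio is CNP-hEGFR over WT. That mean was 1.11-fold higher in CNP-hEGFR. Of the 6 spots those near the ceiling on both arrays had folds from 1.00 to 1.02, while the others had 1.15, 1.38 and 1.39. Those near the ceiling carried bleeding warnings on both arrays. The Gapdh spot with 1.15 was called absent on both, at 0.984 times its local background in CNP-hEGFR and 0.948 times in WT. The log2 ratio was 1.11 for Dcx (2.16-fold), 0.94 for Nes (1.92-fold), -0.01 for Dbn1 (0.996-fold) and -0.21 for Stmn1 (0.866-fold). The members thus fell into a pair near 2-fold higher and a pair near equal, although Dbn1 stood at 0.15 without scaling and Nes turned to -0.03 with the arrays scaled to their median gene spot. Differences of 2-fold serve below as a mark of size, not as a test.

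By that size 1 of the 4 members, Dcx, was higher in CNP-hEGFR and 0 were lower. A gene called present on 1 array only, or at the ceiling on 1 array, has a bound, the smallest difference its intensities allow with Gapdh and Ppia scaling. A gene present on 1 array only was kept only if its bound was higher on that array. Of the 101 genes with a ratio or bound, 49.5% lay 2-fold or more above WT and 1.98% as far below it, so a 2-fold higher value was common on these arrays. Of the 85 of them called present on both arrays, 39 were 2-fold or more above WT and 2 as far below it. The median of the 4 members was 0.47, against 0.83 over all 263 genes, whatever their call. Relative to that median of all genes, Dcx had 0.28, Nes 0.11, Dbn1 -0.84 and Stmn1 -1.04. The ceiling allowed Dbn1 a log2 ratio of at most 0.05 and Stmn1 of at most 0.07. Both limits lie below 0.83, so negative values relative to the median were fixed in advance for these genes.

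**Figure D3:**
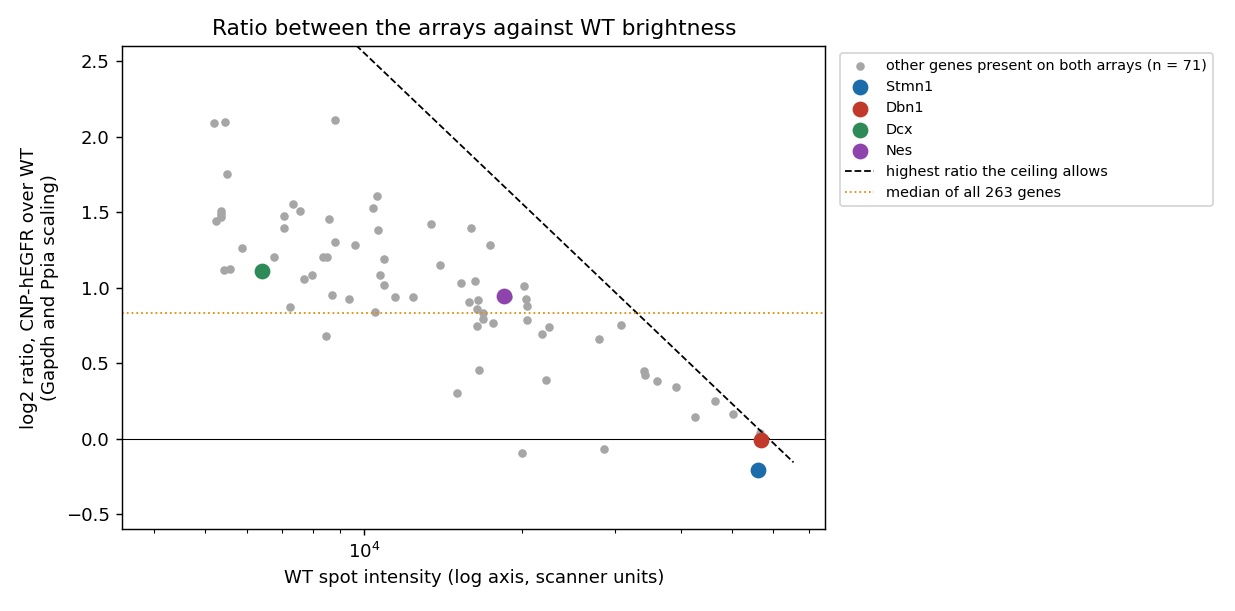
Log2 ratio of CNP-hEGFR over WT after Gapdh and Ppia scaling against WT spot intensity (log axis, scanner units), for genes called present on both arrays, outside the 9 set aside, with spots below the ceiling. The dashed line is the highest ratio that the ceiling of 65535 allows and the dotted line the median of all 263 genes. Dbn1 lies close to the dashed line at -0.01, Stmn1 below it at -0.21, and Nes (0.94) and Dcx (1.11) lie among the other genes of their brightness.

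The ceiling limited the bright pair. With Gapdh and Ppia scaling and its WT intensity, Stmn1 could have had a log2 ratio of at most 0.07 and Dbn1 of at most 0.05. The limits for Nes (1.67) and Dcx (3.20) lay above their values. Dbn1 came close to its limit and Stmn1 stayed further below its own. Among the 75 genes present on both arrays with a ratio, leaving out the 9 set aside, Stmn1 had the lowest ratio, Dbn1 the fourth lowest, Nes stood at place 37 from the lowest and Dcx at 46.

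The brightness of a gene in WT, which is the denominator of its ratio, went with that ratio. The 10 of these 75 genes above 32768 in WT, the middle of the scale, included Stmn1 and Dbn1. Their ratios ran from -0.21 to 0.45 with a median of 0.21. The 65 dimmer genes, Nes and Dcx among them, had -0.10 to 2.11 with a median of 1.06. The ceiling allowed the 10 bright genes at most 0.05 to 0.79, so a median below 1.06 was fixed in advance for them. Values below 0, which Stmn1 and Dbn1 had, were found for 5.43% of the 92 genes with a ratio or bound outside the 9. Stmn1 was the only 1 of the 75 whose unscaled intensity was lower in CNP-hEGFR than in WT. Runx3, a transcription factor gene with a like WT intensity (56487), had 64764 in CNP-hEGFR and a ratio of 0.04, close to its own limit of 0.06. Beyond these limits, the part of saturation in these ratios was not tested.

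The distance between members does not depend on a factor common to an array, but it does depend on the treatment of the background. The ratio of Dcx exceeded that of Stmn1 by 1.32 on the log2 scale, a 2.49-fold difference, and that of Nes exceeded it by 1.15. The ceiling also set part of these distances. Dcx lay 1.04 above the highest ratio that the ceiling allowed Stmn1, so at least that much of its distance was fixed. Nes, at 0.94, also lay above that limit of 0.07. With each spot divided by its own local background, Dcx exceeded Stmn1 by 0.67 and Nes exceeded it by 0.56. With local background subtracted these distances were 2.35 and 1.95, and with the authors' normalized values 1.52 and 1.21. Dcx exceeded Nes by 0.17, by 0.11 over own background, by 0.40 with background subtracted and by 0.32 with the authors' values.

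**Figure D4:**
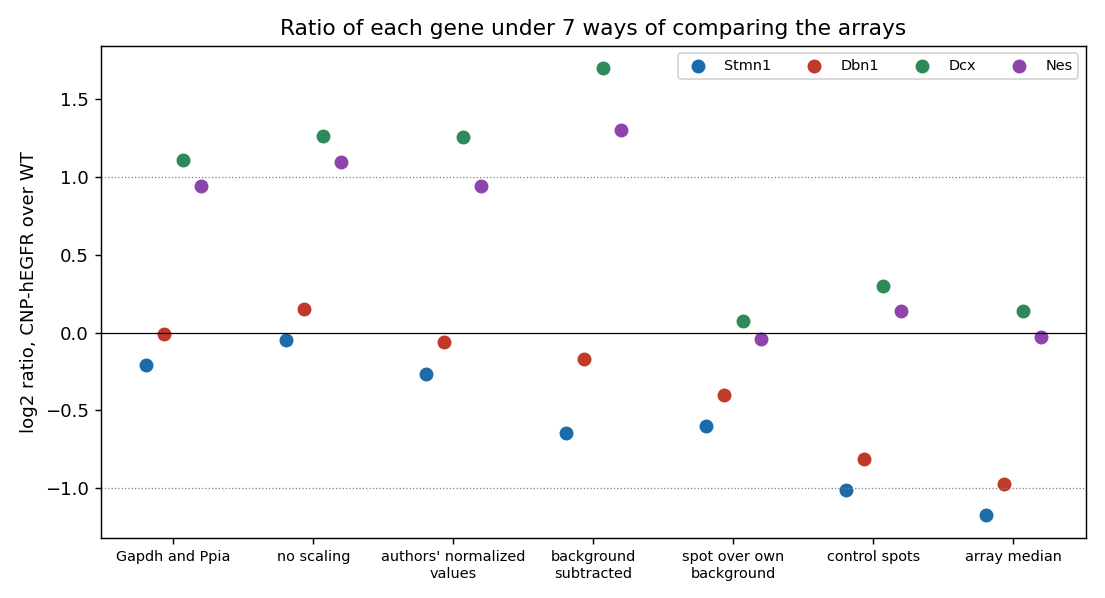
Log2 ratio of CNP-hEGFR over WT for each member under 7 ways of comparing the arrays, with dotted lines at 1 and -1, a 2-fold difference. Dcx stands highest and Stmn1 lowest under all 7. In 4 of the 7 the arrays differ by a common factor only, so the order is fixed there. Nes and Dcx lie near 1 or above it with Gapdh and Ppia, no scaling, the authors' values or subtraction, and near 0 with each spot over its own background.

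The direction and size against WT depended on the scaling. Divided by its own local background, with no other scaling, Dcx had a log2 ratio of 0.07 and Nes -0.04, so both lay near equality once set against their surroundings. Stmn1 had -0.60 and Dbn1 -0.40 on it. The ceiling allowed the Stmn1 spot to be at most 1.17-fold and the Dbn1 spot at most 1.16-fold brighter in CNP-hEGFR. Their local backgrounds were 1.46-fold and 1.47-fold higher there, so negative values were fixed in advance for both genes. Across all genes the median on this scale was 0.05, and across the 10 bright genes above it was -0.42. Among the 85 genes with a value on it 7.06% were at least 2-fold lower and 2.35% higher, and no member was among them. Outside the 9 set aside, 2 of 76 genes were lower and 0 higher.

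With the arrays scaled to their median gene spot, Stmn1 had -1.18, Dbn1 -0.98, Nes -0.03 and Dcx 0.14. Stmn1 was then 1 of 8 genes at least 2-fold lower in CNP-hEGFR, 8% of 100, and 1 of 4 outside the 9 set aside. With the control and blank spots below the ceiling as scale Stmn1 had -1.01, Dbn1 -0.81, Nes 0.14 and Dcx 0.30, and 5.94% of 101 genes were at least 2-fold lower and 7.92% as far above WT. Outside the 9 set aside only Stmn1 and Fezf2, 2 of 92 genes, were at least 2-fold lower on that scale. The ceiling bears on both scales. From their WT intensities Stmn1 could be at most 1.17-fold and Dbn1 at most 1.16-fold brighter in CNP-hEGFR before scaling. The scale factor was 2.18 for the array median and 1.95 for the control and blank spots. A negative log2 ratio was thus fixed in advance for both genes, though not a 2-fold lower one. The ratio of CNP-hEGFR over WT in the authors' deposited table was 0.832 for Stmn1, 0.959 for Dbn1, 2.39 for Dcx and 1.92 for Nes, and the normalized values of all 4 genes can be computed from their intensities.

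By the distance between log2 intensities on the 2 arrays, the spot most like Stmn1 was Dbn1 (distance 0.22), followed by Runx3 (0.26) and the growth factor gene Fgf2 (0.27). Those most like Dbn1 were Runx3 (0.04), Chrd (0.05) and Fgf2 (0.17). All of these stood near the top of both arrays. Nearest to Nes were the histone deacetylase gene Hdac7a (0.03), the ephrin gene Efnb3 (0.15) and the semaphorin gene Sema5a (0.17), with ratios from 0.79 to 0.94. Nearest to Dcx were the homeobox gene Emx1 (0.13), Arnt2 (0.18) and the non-muscle myosin gene Myh10 (0.19). Arnt2, at 13545 in CNP-hEGFR and 6305 in WT, was called absent on both arrays although its intensities were close to those of Dcx, and it was 0.946 times its local background in CNP-hEGFR and 0.810 times in WT.

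Of a list of 42 genes of the cytoskeleton and of neuronal migration, without the 4 members, 17 were on the array. Of these 6 were called present on both arrays, 3 in CNP-hEGFR only and 8 on neither. Of the 9 with a value 5 lay 2-fold or more above WT and 0 as far below, against 52.2% higher and 0% lower among the 92 genes left without the 9 set aside. The 5 include the 3 present in CNP-hEGFR only, which by the rule for bounds could enter only as higher. Of the 6 present on both arrays only Dlg4 and Efnb1 lay that far above WT. The 6 genes present on both arrays had a median log2 ratio of 0.80, against 0.83 over all 263 genes, whatever their call. Among the 75 genes present on both arrays with a ratio, outside the 9, Nes with 0.94 stood at place 37 from the lowest.

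Among the microtubule and migration genes of this list, Dclk1 had a log2 ratio of 0.75, Dab1, which passes on the Reelin signal, 0.42, and Cdk5rap3 0.14. Dab1 and Cdk5rap3 belong to the 10 bright genes above. The growth cone gene Gap43 had 0.86, with 33153 in CNP-hEGFR and 16436 in WT, and the ephrin gene Efnb1 had 1.20. The postsynaptic scaffold gene Dlg4 had 2.10. Mtss1, whose product binds actin and membrane, Ppp1r9b, which encodes the actin-binding spinophilin, and the plexin gene Plxna4 were present in CNP-hEGFR only. With Gapdh and Ppia scaling they were at least 4.80-fold, 2.25-fold and 2.25-fold higher there. Their log2 ratios over own local background, taken without regard to the call, were 0.61, 0.18 and 0.53. Cdk5, Cdk5rap1, the Lis1 gene Pafah1b1, Map1b, Map2, the neuronal intermediate filament gene Ina, Reln and Nrcam had no present call on either array.

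A further 10 actin and microtubule genes were chosen after the array's symbols were seen. Of these Vasp (log2 ratio 1.46) and Myh10 (1.20) were present on both arrays, and Rac1 in CNP-hEGFR only. With Gapdh and Ppia scaling Rac1 was at least 1.79-fold higher, and over own local background its log2 ratio was 0.12. Enah, Evl, Pak1, Tiam1, Dpysl3, Mark4 and Gas7 had no present call.

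Few other markers of SVZ cells were on the array, which limits the check of the tissue. Of the 8 neuroblast markers 2 were measured, Dcx and Dlx5, and Dlx5 was called absent on both arrays. Of the 11 progenitor markers 4 were measured, and Sox3 and Pax6 were called absent on both. The sums that follow are of unscaled intensities and include spots called absent. All gene spots were 1.99-fold brighter in CNP-hEGFR at the median. The summed intensity of Dcx and Dlx5 was 19059 in CNP-hEGFR and 8201 in WT (2.32-fold). For Map2 and Dlg4, 2 of 6 markers of mature neurons, the sum was 29768 in CNP-hEGFR and 8484 in WT (3.51-fold). For the astrocyte marker S100b, 1 of 4, it was 10759 in CNP-hEGFR and 4565 in WT (2.36-fold). Of 9 oligodendrocyte lineage markers 3 were measured, Olig1, Olig2 and Cspg4. Their sum was 52935 in CNP-hEGFR and 31944 in WT (1.66-fold, below that median), although Olig2 is among the 9 genes set aside. With no background subtracted, an intensity above 0 does not show expression. Dlx5, Map2 and Cspg4 were called absent on both arrays, at 0.972, 0.684 and 0.894 times their local background in CNP-hEGFR. Of 6 listed markers of blood, vessels and microglia 0 were on the array. The part of these cell types in the values of the 4 genes was not tested.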

How the data were processed

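Spot intensities and local backgrounds were taken as deposited by the authors, without background subtraction and averaged over each spot, per the file headers. The authors' normalized values give a ratio, intensity minus the array minimum over the same difference for 9 normalization spots, per the file headers. The design text names GEArray Expression Analysis Suite 2.0. Calls, bleeding marks, layout and the series' values (equal at 2 decimals for 288 spots) were read from further deposited tables.

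The arrays were scaled to their mean over 3 Gapdh and 3 Ppia spots, and the log2 ratio taken in Python 3.11.15 with pandas 2.3.3. Genes at the ceiling on 1 array have a bound, as do genes present on 1 array only, against the lowest present intensity, 10178 in CNP-hEGFR and 5090 in WT. Spots at 99% of the ceiling on both arrays have no ratio. For 9 genes the deposited normalized value differs by more than 0.001 from that computed from the intensity. A single array per group allows no test. Array-median, control-spot and no scaling, background division or subtraction and the authors' values were alternatives. The ratio step was tested on simulated data.

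The members and lists were chosen with earlier results of these data known. Named genes are the members, the 3 spots nearest to each, the listed cytoskeleton genes with a present call and, outside that rule, genes named for their place beside a member, their absent call, their brightness or as markers. Accessions of 253 of the 263 genes matched RefSeq GRCm38.p6, and the symbols of other genes were matched through its synonyms.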

Additional observations from a re-analysis of the deposited data

Results flagged for a closer look

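Local background was not subtracted from the intensities behind the main ratios, and it differed between the arrays beside every member. It was 2.29-fold higher in CNP-hEGFR than in WT beside Dcx, 2.20-fold beside Nes, 1.47-fold beside Dbn1 and 1.46-fold beside Stmn1, against a median of 1.87-fold around all gene spots. Beside Dcx and Nes it was thus above that median, and beside the bright pair below it.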

How the results depend on the processing

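No paired analysis was possible because each group has 1 array, and for the same reason no replicate could be left out. A value is given here where it moved by more than 0.199, the SD of the log2 ratios of 4 housekeeping spots of Gapdh, Ppia and B2m below 95% of the ceiling. With Rps27a and the 12S rRNA, left out of it, the SD over 6 spots would be 0.796. Array-median scaling gave Stmn1 -1.18, Dbn1 -0.98, Dcx 0.14 and Nes -0.0264. Control and blank spot scaling gave Stmn1 -1.01, Dbn1 -0.81, Dcx 0.30 and Nes 0.14. Under both of these scalings the ceiling allowed only negative values for Stmn1 and Dbn1. Spot over own local background gave Stmn1 -0.60, Dbn1 -0.40, Dcx 0.0716 and Nes -0.0390. Given the local backgrounds of Stmn1 and Dbn1, the ceiling allowed only negative values for them here too. Subtraction of local background gave Stmn1 -0.65, Dcx 1.70 and Nes 1.30. No scaling and the authors' normalized values moved none of the 4 ratios by more than that, although Dbn1 turned to 0.15 without scaling.

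The count of genes at least 2-fold higher, 50, became 8 with array-median scaling, 8 with control and blank spot scaling, 2 over own local background and 96 over all genes. The count at least 2-fold lower, 2, became 8 with array-median scaling, 1 with no scaling, 6 with control and blank spot scaling, 6 over own local background and 0 without the 9 genes, an alternative chosen after seeing the data. Genes present on 1 array only were not counted for the background and the authors' values, which leaves fewer genes there. Of 16 alternative ranks of the members 12 lay within 26 places. The other 4 were those of Stmn1 and Dbn1 over own local background. The cause was not tested. Dcx was 1.38 times its local background in CNP-hEGFR and 1.31 times in WT. Dbn1 was at 96.1% of the ceiling in CNP-hEGFR and 86.6% in WT, and Stmn1 at 82.6% in CNP-hEGFR and 85.5% in WT.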
